A study of Sus scrofa with 16 samples.

Results

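The expression of *NRN1*, *LHX5*, *ESM1*, *SEMA3E*, *EGF* and *PPP1R14C*, 6 of the 25880 genes counted, was examined in pituitary glands of 16 Puławska gilts. They were chosen by identifier because their counts were raised in a few glands of pigs with high feed conversion (HFC). Their levels in HFC against pigs with low feed conversion (LFC) therefore describe how they were selected and are given with no test. The question was which libraries carried them, and whether among libraries of the same group they moved with *PCSK2* and *PAX7*, markers of the intermediate lobe, or with *AVP*, a marker of the posterior lobe. The LFC group held replicates 1 to 8 and the HFC group replicates 9 to 16, 1 library per gilt. A high feed conversion means that more feed was eaten for the same gain in weight. All animals were untreated females of the same breed, labelled as 3 months old, although the methods of the study describe older pigs when fattening ended. According to the same methods they were unrelated pigs from several farms, kept in 1 testing station, and the whole gland was homogenised.

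The pituitary joins tissues of different origin. The anterior lobe makes growth hormone, prolactin and the glycoprotein hormones. The intermediate lobe, prominent in pigs, consists mainly of melanotrophs, whose fate is set by the transcription factor PAX7 and which use the protease PCSK2 to cut the POMC precursor into melanocyte-stimulating hormone. The posterior lobe holds pituicytes, a glial cell type, and the axon endings of hypothalamic neurons that make vasopressin (*AVP*) and oxytocin (*OXT*). In a homogenised gland, more cells of a lobe and more RNA per cell of that lobe cannot be told apart.

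The 6 genes have unlike known roles. *NRN1* encodes neuritin, a membrane-anchored protein that promotes neurite growth, and *LHX5* a LIM-homeodomain transcription factor of the developing forebrain. *ESM1* encodes endocan, a secreted proteoglycan best known from endothelium, and *SEMA3E* a secreted guidance cue that binds the receptor plexin D1. *EGF* encodes epidermal growth factor, a ligand of EGFR, and *PPP1R14C* an inhibitor of protein phosphatase 1. In the RefSeq annotation of Sscrofa11.1, the assembly also used for the counts, they lie on 6 chromosomes. *NRN1* spans 3682568 to 3691328 on chromosome 7, *LHX5* 38446781 to 38456460 on chromosome 14 and *ESM1* 34184255 to 34193877 on chromosome 16. *SEMA3E* spans 96682178 to 96941074 on chromosome 9, *EGF* 112235607 to 112330062 on chromosome 8 and *PPP1R14C* 15867846 to 15949951 on chromosome 1.

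Libraries held 10.973 to 23.06 M counts. LFC 5, HFC 13 and HFC 14 stood apart on the first principal component, which held 38.6% of the variance, with scores of 127.1, 77.08 and 68.16 against -56.63 to 9.123 in the other libraries. On the second component HFC 16 (-91.94), HFC 14 (-55.6) and HFC 11 (-44.7) stood apart from the other libraries (-5.173 to 36.25). *POMC* took 22% of the counts of HFC 16 against 0.624 to 6.523% elsewhere. Levels are given below as CPM, the count divided by the TMM-scaled library size and multiplied by 1000000. The summed CPM of 7 anterior lobe genes was 13930 to 169500 in every library, so each carried pituitary hormone transcripts.

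A gene was taken as carried by a library at 1 CPM or more. By this measure *LHX5* was carried by 4 libraries (HFC 11, 14, 15 and 16), *PPP1R14C* by 4 (HFC 11, 13, 14 and 16) and *NRN1* by 5 (HFC 11, 13, 14, 15 and 16), none of them LFC. *SEMA3E* was carried by 10 libraries, of which 7 were HFC and 3 LFC. *EGF* was carried by 15 libraries, all but HFC 15, and *ESM1* by all 16. Hence *LHX5*, *PPP1R14C* and *NRN1* were under 1 CPM outside a few HFC glands, while *ESM1* and *EGF* were carried by nearly every gland and *SEMA3E* lay near the minimum in LFC. The count for *NRN1* depended on the minimum, and at 0.5 CPM it was carried by 12 libraries, 5 of them LFC.

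**Figure D1:**
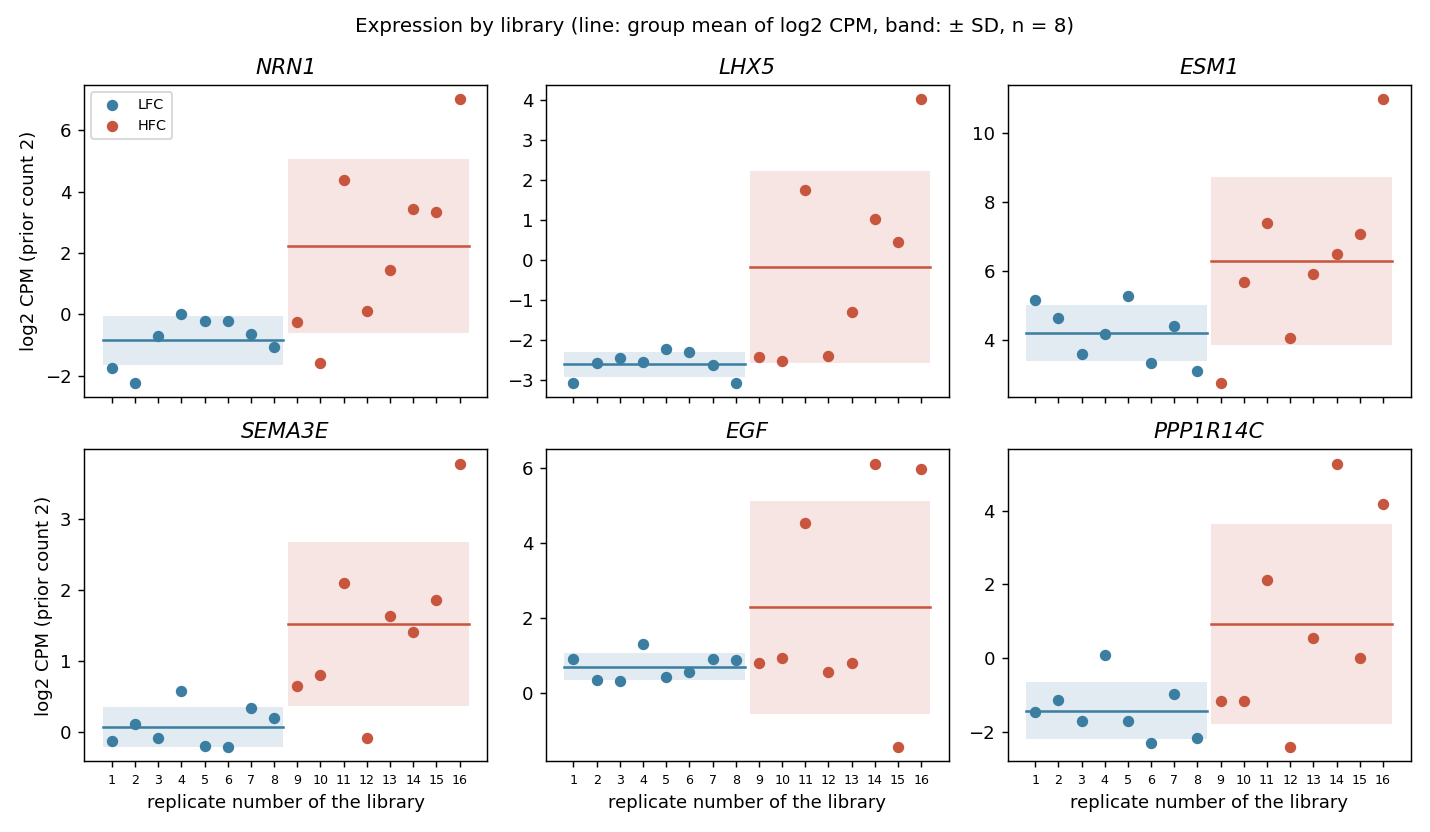
Log2 CPM (prior count 2) of the 6 genes in each of the 16 libraries, by replicate number, with LFC in blue and HFC in red; lines are group means and bands ± SD (n = 8 per group). HFC 16 and HFC 11 are high for all 6 genes, HFC 14 is the highest for EGF and PPP1R14C, and HFC 15 is high for NRN1, LHX5 and ESM1 but the lowest of all for EGF.

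*LHX5* was nearly absent from LFC glands, where no library held more than 2 counts and LFC 1 and LFC 8 held 0. In HFC it had 271 counts in HFC 16, 68 in HFC 11, 20 in HFC 15 and 19 in HFC 14, and 3, 1, 1 and 1 in HFC 13, 9, 10 and 12. On the CPM scale these 4 libraries stood at 16.22, 3.274, 1.257 and 1.934, and HFC 9, 10 and 12 lay within the LFC range of 0 to 0.0943 CPM. With so few counts in LFC, no fold between the groups is given for *LHX5*.

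*NRN1* ranged from 0.0955 to 0.893 CPM in LFC, with a median of 0.515. In HFC the values were 129.2 CPM in HFC 16, 20.51 in HFC 11, 10.79 in HFC 14, 10.05 in HFC 15, 2.598 in HFC 13, 0.961 in HFC 12, 0.723 in HFC 9 and 0.217 in HFC 10. HFC 9 and HFC 10 lay within the LFC range, and the other 6 above it. Log2 CPM averaged -0.84 ± 0.79 in LFC and 2.24 ± 2.83 in HFC (SD, n = 8 each), and HFC 16 alone held 72.4% of all *NRN1* counts of the series.

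*ESM1* ranged from 8.377 to 38.19 CPM in LFC, with a median of 19.34. In HFC it stood at 2041 CPM in HFC 16, with 34105 counts, at 167.6 in HFC 11, 133.3 in HFC 15, 89.97 in HFC 14, 59.95 in HFC 13 and 51.5 in HFC 10. HFC 12 at 16.54 CPM lay within the LFC range and HFC 9 at 6.569 CPM below it. HFC 16 held 75.11% of all *ESM1* counts.

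*SEMA3E* had the smallest SD of log2 CPM of the 6 genes in both groups. It ranged from 0.741 to 1.366 CPM in LFC, with a median of 0.887, and stood at 13.65 CPM in HFC 16, 4.141 in HFC 11, 3.519 in HFC 15, 2.983 in HFC 13, 2.544 in HFC 14, 1.628 in HFC 10, 1.445 in HFC 9 and 0.824 in HFC 12. All HFC libraries but HFC 12 were above the LFC range. Log2 CPM averaged 0.07 ± 0.28 in LFC and 1.52 ± 1.16 in HFC (SD, n = 8 each).

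*EGF* ranged from 1.133 to 2.364 CPM in LFC, with a median of 1.548. It was raised in 3 HFC libraries only, to 68.9 CPM in HFC 14, 62.31 in HFC 16 and 22.97 in HFC 11. HFC 9, 10, 12 and 13 stood at 1.373 to 1.791 CPM, within the LFC range. HFC 15, with 4 counts or 0.2513 CPM, was below all other libraries of the series.

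*PPP1R14C* ranged from 0.0823 to 0.946 CPM in LFC, with a median of 0.217. It stood at 38.88 CPM in HFC 14, 18.02 in HFC 16, 4.237 in HFC 11 and 1.347 in HFC 13, all above the LFC range. HFC 15 at 0.8797 CPM, HFC 9 and HFC 10 lay within that range, and HFC 12, with 1 count, below it. Together the 3 libraries with the highest *EGF* were also the 3 with the highest *PPP1R14C*, in the same order.

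Across the whole table no gene was called higher in HFC (0% of 14319 genes tested by edgeR, at an adjusted p of at most 0.05 and a fold of at least 1.3), and none lower. Before adjustment 834 genes had a p under 0.05. Called genes numbered 0 with limma-voom and 5 with DESeq2. Of the 6 genes, 4 passed the abundance filter of that comparison, and *LHX5* and *PPP1R14C* did not. All 6 had at least 10 counts in at least 3 libraries. *LHX5* had them in HFC libraries alone and *PPP1R14C* in 5 HFC libraries and 1 LFC library, so both met this minimum only because of HFC. Under that filter the log2 fold of HFC over LFC was 5.43 (SE 1.13) for *NRN1*, 4.63 (SE 1.11) for *PPP1R14C*, 3.95 (SE 0.98) for *ESM1*, 3.67 (SE 0.95) for *EGF* and 2.01 (SE 0.46) for *SEMA3E*. These folds are a description, since the genes were picked from this contrast. Without HFC 16 they were 3.69 for *NRN1*, 1.85 for *ESM1* and 1.35 for *SEMA3E*, and without HFC 14 they were 3.50 for *PPP1R14C* and 3.07 for *EGF*, so that 1 library moved each by over 1.5 times on the linear scale.

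The lobe markers varied in their own way. *PCSK2* stood at 2580 CPM in HFC 16, 298 in HFC 11, 173.9 in HFC 14 and 126 in HFC 15, and at 2.452 to 27.27 CPM in the other 12 libraries. *PAX7* was highest in the same 4 libraries, at 330.8, 30.77, 17.81 and 9.802 CPM, against at most 3.118 CPM elsewhere. *AVP* stood at 58.12 CPM in HFC 13, 44.58 in HFC 14, 44 in HFC 16, 35.77 in HFC 11 and 21.97 in LFC 5, and at no more than 6.191 CPM in the other 11 libraries. Thus HFC 11, 14 and 16 were high in both kinds of marker, HFC 15 was high in *PCSK2* with *AVP* at 0.8168 CPM, and HFC 13 was high in *AVP* with *PCSK2* at 21.94 CPM. LFC 5 was likewise high in *AVP* with *PCSK2* at 2.452 CPM. In HFC 13, HFC 15 and LFC 5 the markers of the lobes therefore parted.

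In HFC 15, *NRN1*, *LHX5*, *ESM1* and *SEMA3E* were above every LFC library, while *EGF* and *PPP1R14C* were not. In HFC 13, *NRN1* at 2.598 CPM, *LHX5* at 0.2887 CPM (3 counts), *ESM1*, *SEMA3E* and *PPP1R14C* were above every LFC library, and *EGF* at 1.636 CPM was not. In LFC 5 *ESM1* at 38.19 CPM was the highest of the LFC group, and *NRN1* at 0.7543 CPM, *EGF* at 1.226 CPM and *PPP1R14C* at 0.1886 CPM lay within the range of the other LFC libraries. The 8 HFC libraries stood in the same order for *PCSK2* and *NRN1*, from HFC 16, 11, 14, 15 and 13 down to HFC 12, 9 and 10. *LHX5* had that order over the first 5 of these, and the last 3 held 1 count each. Below 30 CPM of *PCSK2* the order was less close. HFC 13 with 21.94 CPM of *PCSK2* had 2.598 CPM of *NRN1* and LFC 7 with 27.27 CPM had 0.527, while HFC 9 and HFC 12 (0.723 and 0.961 CPM of *NRN1*) were close to LFC 4 and LFC 6 (0.893 and 0.741 CPM), at 10.12 to 18.77 CPM of *PCSK2*.

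**Figure D2:**
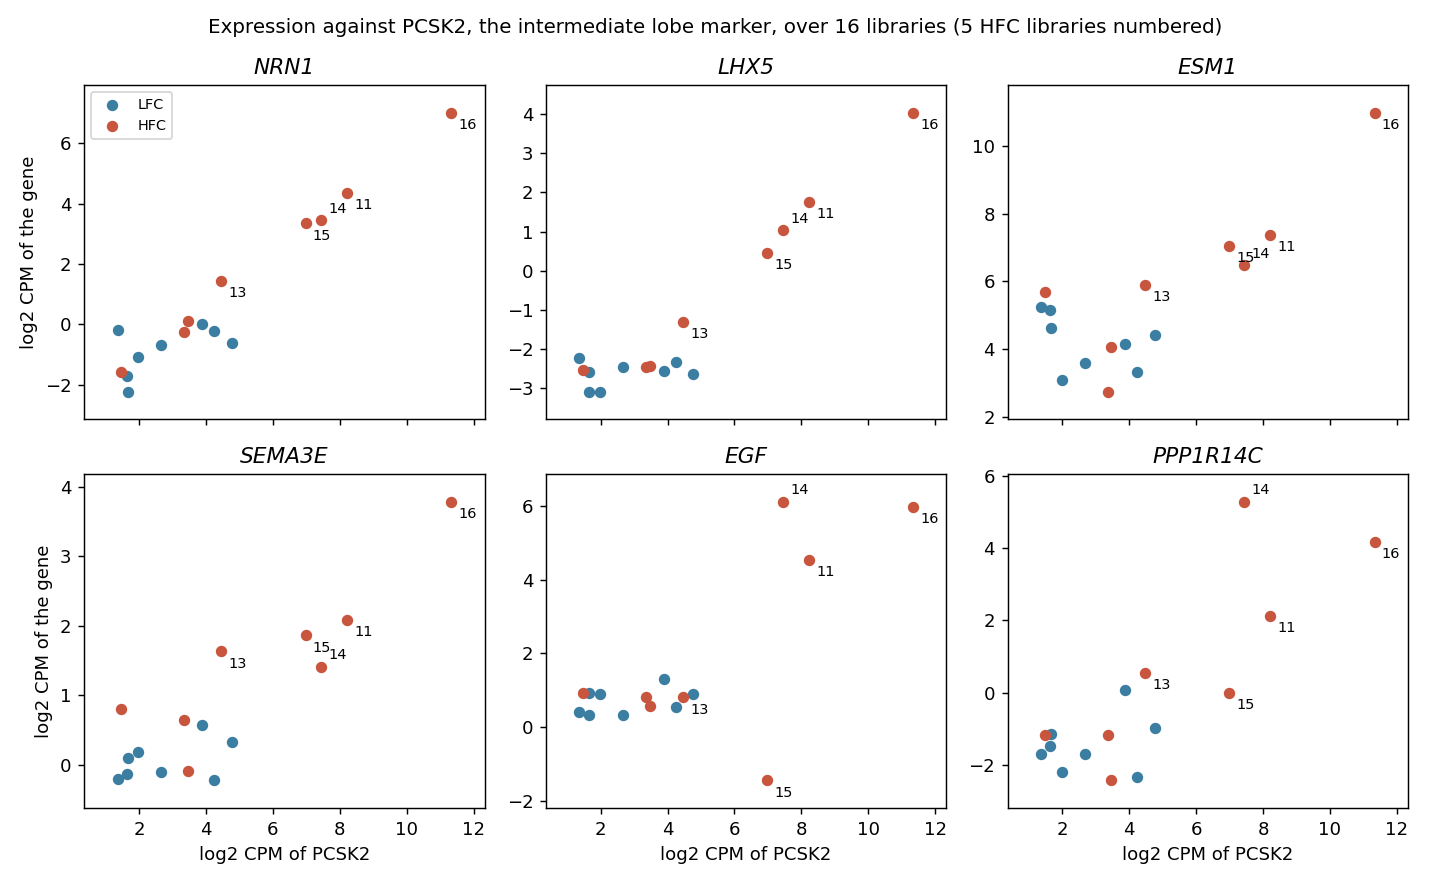
Log2 CPM of each gene (y axis) against log2 CPM of PCSK2 (x axis) in the 16 libraries, LFC in blue and HFC in red, with HFC 11, 13, 14, 15 and 16 numbered. NRN1 and LHX5 climb with PCSK2 from HFC 13 to HFC 16, whereas HFC 15 falls to the bottom of the EGF panel and HFC 14 to the top of the EGF and PPP1R14C panels.

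Within each of the 4 libraries with *PCSK2* over 100 CPM, reads were counted per 100 *PCSK2* reads, a ratio that total depth does not enter. Read numbers depend on transcript length, so the ratio is compared between libraries and not between genes. *PCSK2* itself differed 20.5-fold among these libraries. *NRN1* gave 6.883, 6.202, 7.976 and 5.009 reads per 100 *PCSK2* reads in HFC 11, 14, 15 and 16, a 1.59-fold range. *LHX5* gave 1.099, 1.112, 0.997 and 0.6288, a 1.77-fold range, and *PAX7* had a 1.65-fold range. These ranges were small beside that of *PCSK2*, although the 95% exact binomial intervals of *NRN1* in HFC 16 (4.795 to 5.231) and HFC 15 (6.747 to 9.373) did not overlap. The 4 libraries are among those whose raised values chose the genes, so the ratios are a description.

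*ESM1* gave 51.73 to 105.7 reads per 100 *PCSK2* reads, a 2.04-fold range, and *SEMA3E* 0.529 to 2.792, a 5.28-fold range with its lowest value in HFC 16. *PPP1R14C* ranged 32-fold, from 0.6979 in HFC 15 to 22.35 in HFC 14. *EGF* ranged 199-fold, from 0.1994 in HFC 15 (95% exact binomial interval 0.0543 to 0.511, counting error only) to 39.61 in HFC 14 (36.19 to 43.33). Among LFC libraries *PCSK2* rested on 26 to 621 counts, and the *NRN1* ratio spread from 1.932 to 30.77.

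**Figure D3:**
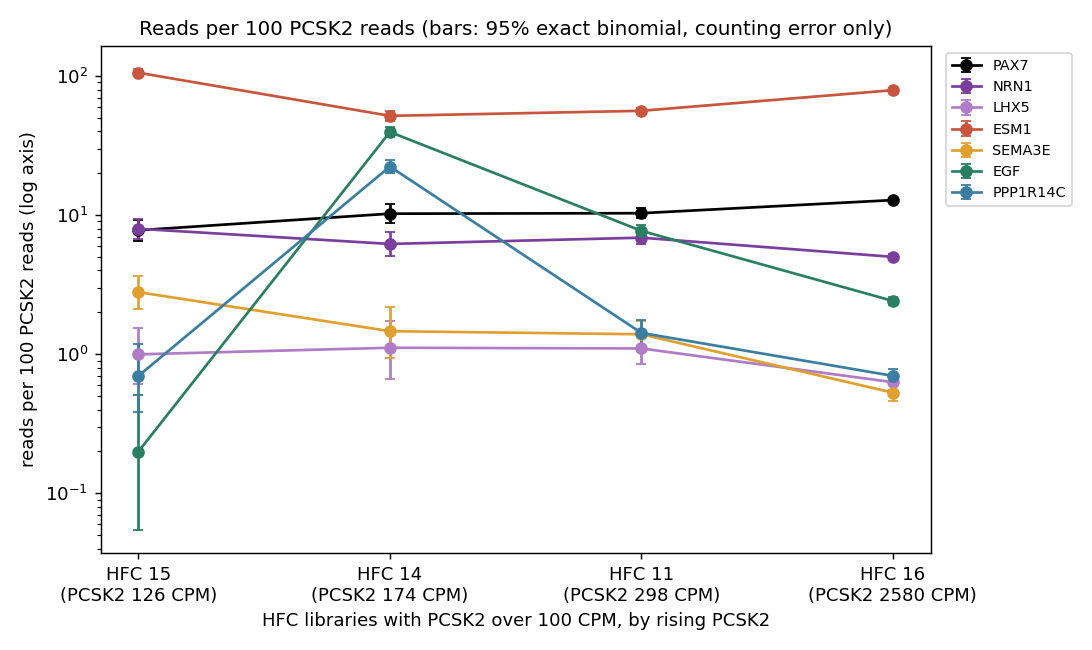
Reads of each gene per 100 PCSK2 reads (log axis) in the 4 HFC libraries with PCSK2 over 100 CPM, ordered by rising PCSK2; bars are 95% exact binomial intervals, which cover counting error only. The PAX7, NRN1 and LHX5 lines span less than a 2-fold range, while the EGF and PPP1R14C lines peak at HFC 14.

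To compare lobes over all libraries, the counts of every gene were fitted by edgeR on group and on the log2 CPM of 1 marker, so that the slope is the log2 change of a gene per doubling of the marker among libraries of the same group. Since the genes were chosen with their values in single libraries known, these p-values are not independent evidence. Of 15012 genes tested, 61 rose with *PCSK2* (0.406%) at an adjusted p of at most 0.05 and 8 fell. *NRN1* and *SEMA3E* were among those that rose. The slope of *NRN1* was 0.85 (SE 0.07, adjusted p = 6.32e-06). *LHX5* and *PPP1R14C* entered the fit only because of HFC libraries, so their slopes are given as a description with no test. Their *PCSK2* slopes were 0.86 (SE 0.08) and 0.79 (SE 0.21). For *SEMA3E* the slope was 0.30 (SE 0.05, adjusted p = 0.0134), so that it changed less per doubling of *PCSK2*. *ESM1* (0.51, SE 0.11, adjusted p = 0.0572) and *EGF* (0.62, SE 0.16, adjusted p = 0.0908) did not pass. With DESeq2, by which 1.73% of the genes rose with *PCSK2*, *ESM1* and *EGF* also passed, with adjusted p of at most 0.00527.

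With *PAX7* as the marker, 228 genes rose (1.52%) and 103 fell, a split of 134 and 116 when libraries were scaled by their total count. *NRN1* (0.73, SE 0.10, adjusted p = 0.00195) and *SEMA3E* (0.29, SE 0.05, adjusted p = 0.0146) rose again. The slope of *LHX5* was 0.81 (SE 0.09) and that of *PPP1R14C* 0.73 (SE 0.22), as a description. The adjusted p was 0.0539 for *ESM1* and 0.0554 for *EGF*.

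With *AVP* as the marker, 1011 genes rose (6.73%) and 368 fell, but *SEMA3E*, *NRN1*, *ESM1* and *EGF* did not pass. Their slopes were 0.16 (SE 0.08), 0.45 (SE 0.19), 0.47 (SE 0.15) and 0.48 (SE 0.16), with edgeR adjusted p between 0.0606 and 0.170. The slopes of *PPP1R14C* (0.51, SE 0.20) and *LHX5* (0.54, SE 0.18) are a description with no test. All were positive, and at an unadjusted p under 0.05 all but *SEMA3E* would pass. *PPP1R14C* passed without LFC 4 (adjusted p = 0.0413), as did *LHX5* without HFC 13, in fits by which 4.68% and 5.47% of the genes rose. With DESeq2, by which 12.5% of the genes rose with *AVP*, *ESM1* (adjusted p = 0.00523) and *EGF* (0.00780) passed, while *NRN1* and *SEMA3E* did not.

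**Figure D4:**
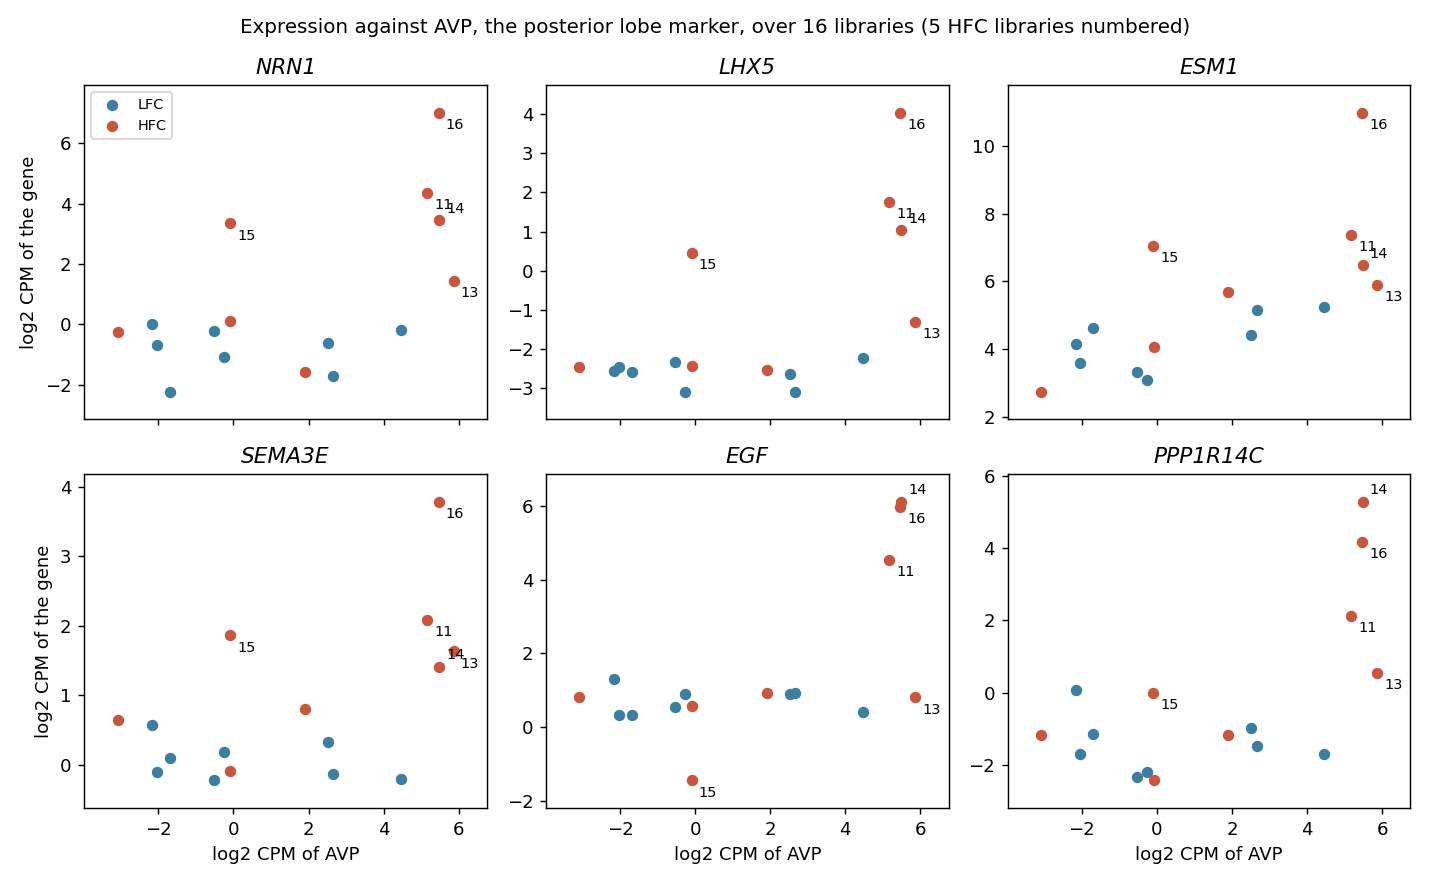
Log2 CPM of each gene (y axis) against log2 CPM of AVP (x axis) in the 16 libraries, LFC in blue and HFC in red, with 5 HFC libraries numbered. HFC 15 is high for NRN1, LHX5 and ESM1 at low AVP, and HFC 13, with the highest AVP of 58.12 CPM, is near the LFC libraries for EGF.

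With both markers in the model 0.28% of the genes rose with *PCSK2* and 11.7% with *AVP*. The *PCSK2* slope was 0.81 for *NRN1* (adjusted p = 3.35e-05), 0.28 for *SEMA3E* (adjusted p = 0.0393) and 0.81 for *LHX5*, close to the values without *AVP*. Beside *PCSK2*, the *AVP* slope dropped to 0.08 (SE 0.06, adjusted p = 0.359) for *NRN1*, 0.04 (SE 0.05, adjusted p = 0.552) for *SEMA3E* and 0.09 (SE 0.09) for *LHX5*. For the other 3 genes both slopes stayed positive, and for *ESM1* and *EGF* neither passed. The *AVP* slope was 0.28 for *ESM1* (adjusted p = 0.0723), 0.26 for *EGF* (adjusted p = 0.155) and 0.30 (SE 0.16) for *PPP1R14C*. With *PAX7* and *AVP* together, a fit by which 3.94% of the genes rose with *PAX7* against 1.52% without *AVP*, the *PAX7* slope passed for *ESM1* (0.44, adjusted p = 0.0227) and *EGF* (0.52, adjusted p = 0.0400) also.

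**Figure D5:**
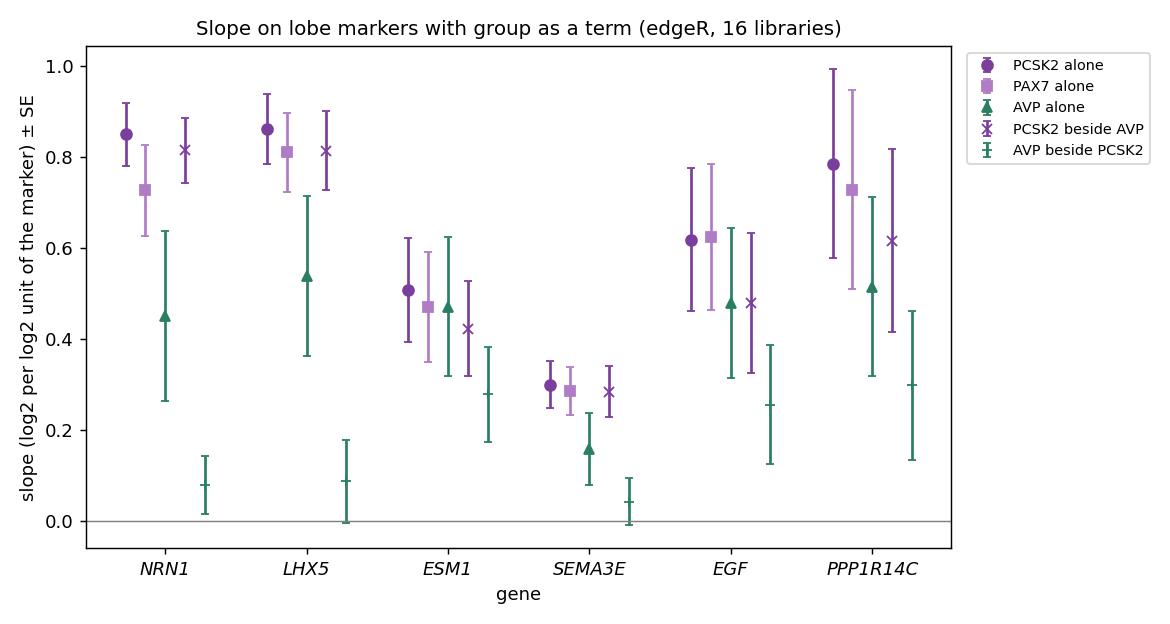
Slope ± SE (edgeR, log2 change per log2 unit of the marker, 16 libraries) of the 6 genes on PCSK2, PAX7 and AVP in models with group and 1 marker, and in the model with PCSK2 and AVP together. For NRN1, LHX5 and SEMA3E the PCSK2 slope is nearly the same with AVP beside it, and the AVP slope falls to 0.08, 0.09 and 0.04.

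HFC 16 had by far the most *PCSK2*, and much rested on it. Without HFC 16 the *PCSK2* fit called 4 genes in all (0.0268%). Among them were ENSSSCG00000004911, for which no symbol was found, *PAX7* and *NRN1* (slope 0.82, adjusted p = 0.0117). *LHX5* had a slope of 0.88 in this fit, as a description. *SEMA3E* then had a slope of 0.20 (adjusted p = 0.911) and *ESM1* of 0.22 (adjusted p = 0.9997). In the *PAX7* fit without HFC 16, *NRN1* (0.61, adjusted p = 0.422) no longer passed, and the slope of *LHX5* was 0.84. Within the LFC group alone, where the genes were low, *NRN1* had a *PCSK2* slope of 0.35 (SE 0.24, adjusted p = 0.876), and *LHX5* and *PPP1R14C* had too few counts to be fitted.

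The calls of *EGF* and *ESM1* turned on single libraries. Without HFC 14 *EGF* passed in the *PCSK2* fit (slope 0.54, adjusted p = 0.0279) and in the *PAX7* fit (adjusted p = 0.0128). By these fits 0.474% and 1.98% of the genes rose. The slopes of *PPP1R14C* in them were 0.61 and 0.55, as a description. *EGF* also passed in both fits without HFC 15 (adjusted p = 0.0283 with *PCSK2* and 0.0243 with *PAX7*), by which 0.914% and 1.88% of the genes rose, and in the *PAX7* fit without LFC 5 (adjusted p = 0.0375). *ESM1* passed in both fits without LFC 5 (adjusted p = 0.0285 and 0.0170), by which 1.21% and 2.08% rose, and in the *PAX7* fit without LFC 6 (adjusted p = 0.0435), by which 1.34% rose. HFC 14 was also set apart by *DES* (desmin), at 1331 CPM against 3.292 to 52.99 in the other libraries. *CNN1* was likewise highest there, at 14.15 CPM against at most 3.583. The remaining smooth muscle and pericyte markers (*ACTA2*, *MYH11*, *TAGLN*, *PDGFRB* and *RGS5*) were each higher in another library. Whether *DES* and *CNN1* bear on the *EGF* and *PPP1R14C* values of HFC 14 was not tested.

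The markers of each lobe were checked by lists. Of all genes, 0.406% rose with *PCSK2* and 1.52% with *PAX7*, so an absence of such calls in lists this short is no result. Of 5 intermediate lobe genes, 4 could be tested besides *PCSK2*, and only *PAX7* rose with *PCSK2* (slope 0.97). *POMC* (0.19, adjusted p = 0.553), *DRD2* (0.19, adjusted p = 0.287) and *TBX19* (0.07, adjusted p = 0.725), which are also active in anterior lobe cells, did not pass. *POMC* rose instead with *AVP*, the posterior lobe marker (0.27, adjusted p = 0.0201), in 14 of 16 fits that left out 1 library, so that *PAX7* was the only gene of the list called with *PCSK2*. Of 9 posterior lobe genes, 8 were tested beside *AVP*, with which 6.73% of all genes rose. Among the 8, *OXT*, *LHX2*, *RAX*, *GFAP* and *COL25A1* rose with it, with slopes of 0.90 to 1.34, in all 16 fits that left out 1 library. None of the 9 was called with *PCSK2*, although their median slope on it was 0.16 (all genes, -0.0004). The largest was that of *COL25A1* (0.48, edgeR adjusted p = 0.346). Of 7 anterior lobe genes *CGA* fell with *PAX7*, a call that held in 4 of the 16 fits that left out 1 library, and *POU1F1* fell with *AVP* in all 16. Among all 15012 genes tested, 103 fell with *PAX7* and 368 with *AVP*. Of 7 genes of smooth muscle and pericytes 6 rose with *AVP*, beside 6.73% of all genes, and none with *PCSK2* or *PAX7*. Of these *ACTA2*, *TAGLN* and *CNN1* lost the call without LFC 5, *CNN1* and *PDGFRB* without HFC 9, and *DES* held it in 6 of the 16 fits.

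No marker of neurons or endothelium was called with *PCSK2*, with which 0.406% of all genes rose. At this share lists this short would hold few or no calls, so the absence is no result about these cells. None of 9 neuron markers passed with any of the 3 markers, and their summed CPM was 319.8 to 592.8 in HFC and 360 to 604.3 in LFC. Which cells held the *NRN1* transcripts was not tested. Of 10 hypothalamic neuron genes matched, 2 had enough counts to be tested, of which *HCRT* rose with *AVP* (in 4 of the 16 fits that left out 1 library), and the 10 summed to at most 9.839 CPM in any library. *SIM1* was at 0 in all libraries but HFC 14, where it was at 0.1018 CPM. Of 10 endothelial genes none rose with *PCSK2* or *PAX7*, with a median slope of 0.02 on *PCSK2* (all genes, -0.0004). They summed to 482.8 CPM in HFC 16 against 326.2 to 739.6 in all libraries. Which cells held the *ESM1* transcripts was not tested. With *AVP*, *TIE1*, *EMCN* and *ROBO4* rose, beside 6.73% of all genes, in 8, 6 and 6 of the fits that left out 1 library.

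The other genes of each pathway were looked at in the same fits. Of all genes, 0.406% rose with *PCSK2*, 1.52% with *PAX7* and 6.73% with *AVP*. Of the 15012 genes tested, 8 fell with *PCSK2*, 103 with *PAX7* and 368 with *AVP*. Lists this short would hold few or no calls with *PCSK2* or *PAX7* at these shares, so an absence of calls is no result about a pathway. Of 8 LIM homeobox factors and cofactors fitted, *LHX5* was included as a description, and none of the others rose with *PCSK2*. *LMX1A* (slope -0.40, adjusted p = 0.00177) and *LHX3*, a factor of pituitary development (slope -0.18, adjusted p = 0.0414), fell. With *PAX7* these 2 and *ISL2* (-0.28, adjusted p = 0.0363) fell. *LHX3* stood at 38.31 CPM in HFC 16 against 80.5 to 177.4 CPM elsewhere. None of these 3 passed without HFC 16. With 1 library left out at a time *LMX1A* passed in 15 of 16 fits with either marker, *LHX3* in 7 with *PCSK2* and 15 with *PAX7*, and *ISL2* in 6 with *PAX7*. *LHX2* rose with *AVP*, not with *PCSK2*.

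Among 14 class 3 semaphorins, plexins and neuropilins tested, *SEMA3E* was the only one called with *PCSK2* or *PAX7*. Its receptor gene *PLXND1* had a slope of 0.08 (adjusted p = 0.586) on *PCSK2* and 13.32 to 37.46 CPM over the libraries. With *AVP*, *SEMA3B* (0.29, adjusted p = 0.00019) and *SEMA3G* rose, beside 6.73% of all genes, and *SEMA3A* fell. These calls held in 16, 14 and 7 of the fits that left out 1 library.

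Among 12 EGF ligands and receptors tested, none was called with *PCSK2* or *PAX7*, and *NRG1* alone, falling, with *AVP* (in 4 of the fits that left out 1 library). The receptor gene *EGFR* had a *PCSK2* slope of -0.02 (adjusted p = 0.968) and *ERBB3*, which encodes a receptor of neuregulins, of 0.21 (adjusted p = 0.0797). Like *EGF*, the ligand genes *BTC* (15.67 CPM) and *HBEGF* (19.13 CPM) were higher in HFC 14 than in any other library, where *BTC* was at most 3.126 CPM and *HBEGF* at most 7.1 CPM. Unlike *EGF*, these 2 were not raised in HFC 16, at 0.4789 and 4.789 CPM.

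Of 6 angiogenic tip cell genes tested, *ESM1* included, none rose with *PCSK2* or *PAX7*, and *CXCR4* fell with *PAX7* (-0.15, adjusted p = 0.0427, held in 5 of the fits that left out 1 library). *ANGPT2* and *APLNR* rose with *AVP*, each in 3 of those fits. *VEGFA* had a *PCSK2* slope of 0.05 (adjusted p = 0.799) and *KDR*, its receptor gene, of 0.05 (adjusted p = 0.836). Of 8 genes of the myosin phosphatase and its inhibitors fitted, *PPP1R14C* was included as a description, and none of the others was called with *PCSK2* or *PAX7*. The *PPP1R14C* relatives *PPP1R14A* (0.36, adjusted p = 0.00714) and *PPP1R14B* (0.12, adjusted p = 0.0488) rose with *AVP*, beside 6.73% of all genes. The first lost its call without LFC 5, where it stood at 32.72 CPM, and the second held its call in 5 of the 16 fits that left out 1 library. In the neurotrophin list of 6 tested genes *NRN1* alone rose with *PCSK2*, and *NGFR*, the low-affinity neurotrophin receptor gene, rose with *AVP* (0.42, adjusted p = 0.00401).

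The genes most like each of the 6 over the 16 libraries were sought among 13386 named genes by Spearman's rho of log2 CPM, as a description. *NRN1* and *LHX5* were near each other (rho 0.89), *LHX5* being the nearest gene to *NRN1*, followed by *IRX6*, *TAF8*, *ERBB3* and *SHISAL2B*. The genes nearest to *LHX5* were *ELF3* (0.89), *NRN1*, *LAT2*, *TEX30* and *APOBEC3B*. Those nearest to *ESM1* were *CDK2AP1* (0.93), *GGT5*, *ANGPTL7*, *CAPZB* and *ACADL*, and to *SEMA3E* *PPP2CB* (0.90), *LACC1*, *RTN4*, *RPF1* and *SLC39A1*. *EGF* had *ADCY7* (0.86), *ACKR3*, *TRAPPC13*, *TMEM26* and *WIPF1*, and *PPP1R14C* had *KRCC1* (0.88), *EGLN3*, *HESX1*, *SNX6* and *LDAF1*. Apart from *NRN1* and *LHX5*, none of the 6 was among the nearest genes of another.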

How the data were processed

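Total RNA of whole pituitaries was made into poly(A) libraries without strand, and each library was run several times with single-end reads. After FastQC and Flexbar, the authors aligned and counted reads on Sscrofa11.1 (STAR and RSEM in the submitters' notes) and deposited whole-number counts per gene, not normalised, with 1 column per library. Without strand, reads of overlapping and antisense genes cannot be told apart. A second deposited table holds the authors' own comparison, from which only gene symbols and gene positions were taken. Of 25880 genes, 14857 were named from a table of identifiers, 688 from the deposited table and *POMC* by position. *VWF*, *CLDN5*, *TRH*, *APLN*, *PGF*, *PPP1R14D* and *NRN1L* were not analysed here.

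Counts were analysed with edgeR 4.0.16 (R 4.3.3) by quasi-likelihood fits with TMM scaling and Benjamini-Hochberg adjustment over all genes tested. HFC and LFC were compared after filterByExpr. Marker fits held group and the log2 CPM (prior count 2) of *PCSK2*, *PAX7* or *AVP*, over genes with at least 10 counts in at least 3 libraries, the marker itself left out. Principal components were taken on log2 CPM. In simulated counts, 97% of 200 genes changed by 2 on the log2 scale between the groups were recovered (14910 genes), and 97.5% of 200 genes with a *PCSK2* slope of 0.5 (14907 genes). Of the genes called, 8.49% and 3.47% were false. The changed genes were drawn from those with higher mean counts, and the group change was even over HFC libraries. These shares therefore do not carry over to genes with few counts or raised in few libraries. No library was a duplicate (chi-square per degree of freedom of at least 27.1 in 56 pairs within groups). Alternatives were DESeq2 1.42.0, limma-voom (limma 3.58.1), other scalings and filters, no group term, 1 group alone, a further marker, and leaving out libraries. Named genes were the 6 genes, the 3 markers, lists of lobe, cell type and pathway genes (127 genes, 120 matched) and the 5 nearest genes of each, and ENSSSCG00000004911 was named after its values were seen. The genes and lists were chosen with earlier results of these data known.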

Additional observations from a re-analysis of the deposited data

Results flagged for a closer look

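The 6 genes and 3 lobe markers were each checked in both groups for a library whose log2 CPM lay far from the other 7, by Dixon's gap test. Of 18 checks, 0 passed, and 0.9 would be expected by chance. The 6 genes were chosen for raised values in several HFC libraries, and beside such values the gap test can miss an extreme library. The 0 therefore does not mean that no library stood apart, as HFC 16 held 72.4% of all *NRN1* counts.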

How the results depend on the processing

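The *PCSK2* slope of *NRN1* passed in all 16 fits that left out 1 library and that of *SEMA3E* in 15, and that of *LHX5*, not tested, was 0.83 to 0.88. Since the genes were chosen with their values in single libraries known, these passes are not independent evidence. In LFC alone the slope of *NRN1* was 0.35 (edgeR adjusted p = 0.876). No paired analysis was possible because LFC and HFC share no replicate numbers. DESeq2 called 5 genes between the groups. The number of genes following *PCSK2* (69) became 107 with no filter, 414 with DESeq2, 135 with limma-voom, 604 without a group term, 22 in HFC alone and 0 in LFC alone (edgeR, 375 at an unadjusted p under 0.05), 365 without LFC 5, HFC 13 and HFC 14, and 4 to 239 with 1 library left out, the lowest without HFC 16 and the highest without LFC 5. For *PAX7* (331) the numbers were 893 with DESeq2, 890 without a group term, 67 in HFC alone, 0 in LFC alone (4016 at an unadjusted p under 0.05), 744 without the same 3 libraries, 1087 with *AVP* as a further term, and 2 to 479 with 1 library left out, the lowest without HFC 16. For *AVP* (1379) they were 534 with total count scaling, 2850 with DESeq2, 919 with limma-voom, 2208 without a group term, 18 in HFC and 55 in LFC alone, 476 without the 3 libraries, 2572 with *PCSK2* as a further term, and 541 to 2980 with 1 library left out, the lowest without LFC 5 and the highest without HFC 16. Pairs left out were chosen after seeing the data. Without HFC 14 and 16, 3 genes followed *PCSK2* and 2 *PAX7*, and without HFC 15 and 16 there were 4 and 2, and 3320 for *AVP*. In LFC alone slopes turned negative for *ESM1* on *PCSK2* (-0.27) and *PAX7* (-0.30), and on *AVP* for *NRN1* (-0.0048), *EGF* (-0.008) and *SEMA3E* (-0.0425). *NRN1* was carried by 12 libraries at 0.5 CPM and 10 at 10 counts, and *SEMA3E* by 16 at 0.5 CPM. The causes were not tested.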

Other observations

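*TSHB*, the beta subunit gene of thyrotropin made in the anterior lobe, was low in 3 of the 4 libraries with *PCSK2* over 100 CPM. It stood at 0.0599 CPM in HFC 16, 1.348 in HFC 11 and 5.906 in HFC 15, against 824 CPM in HFC 14 and 33.37 to 1533 CPM in the other 12 libraries. Its slope on *PCSK2* was -0.38 (SE 0.31, edgeR adjusted p = 0.797), so it did not pass.

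*NGFR*, expressed by several glial and neural cell types, had an order of its own. It stood at 182.7 CPM in HFC 16, 81.66 in HFC 11, 70.02 in HFC 14 and 39.45 in HFC 13, and at 4.964 CPM in HFC 15, where *NRN1* and *LHX5* were raised. The other 11 libraries lay between 3.778 and 21.4 CPM, the highest being LFC 5.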
